A study of Homo sapiens with 18 samples.

Results

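The HOX cluster genes described here are 38 listed protein-coding genes of the 4 human HOX clusters, out of 19974 protein-coding genes (autosomes and chromosome X). They were taken by name and not by any measured value: 10 genes of the HOXA cluster (HOXA2 to HOXA13), 10 of HOXB (HOXB1 to HOXB9 and HOXB13), 9 of HOXC (HOXC4 to HOXC13) and 9 of HOXD (HOXD1 to HOXD13). All 38 had a gene record in RefSeq GRCh38.p14. The study used ChIP-seq, the sequencing of DNA pulled down with an antibody, and the cells were MDA-MB-231, a long-established human line of triple-negative breast cancer. Parental cells gave the libraries for KDM2B, MYC, trimethylated H3K4 (H3K4me3), trimethylated H3K27 (H3K27me3) and ubiquitinated H2AK119 (H2AK119ub), while acetylated H3K27 (H3K27ac) came from cells carrying an empty vector. There were 18 libraries, 2 per group in 9 groups, and input libraries of both stocks were among them. One deposited peak list per target was used for 6 targets, so no value below has a replicate error or a test, and ATF4 was not analysed here.

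HOX genes encode homeodomain transcription factors that set the identity of body segments along the head to tail axis. They stand in clusters in which all genes are transcribed in 1 direction, and their order along the chromosome follows the order in which they are used along the body, from anterior genes with low numbers to posterior genes with high numbers. Genes with the same number in different clusters are paralogues. The clusters are textbook targets of Polycomb repression, in which PRC2 writes H3K27me3 and PRC1 writes H2AK119ub. KDM2B binds unmethylated CpG DNA through a CXXC zinc finger and is part of the PRC1 variant ncPRC1.1. MYC is a transcription factor that binds the E-box CACGTG, H3K4me3 marks promoters, and H3K27ac marks active promoters and enhancers.

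The peak lists held between 19982 peaks, for KDM2B, and 306465 peaks, for H3K27me3, on the chromosomes used. Their median width was between 385 bp for KDM2B and 644 bp for H3K4me3, so the broad Polycomb marks were deposited as many short peaks. The fold given with each peak is the authors' own ratio of signal over background, and it ranks peaks only within its list. It belongs to the whole peak, whose summit can lie outside the gene that the peak reaches. Read depth is unknown, since the lists hold no counts. All 5 genes taken as active in this line (VIM, CD44, AXL, CAV1 and FOSL1) had H3K4me3 and H3K27ac at an end. Of 7 genes taken as lacking H3K27ac, CDH1, ESR1, PGR and PTPRC lacked it at their ends, while GATA3 (28.0-fold), FOXA1 (32.6-fold) and ERBB3 (11.0-fold) had it, against that choice of markers. CDKN2A had no peak in any list.

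The promoter sequences of 4 HOX genes show the range of CpG content and of marks that the results turn on. Each is the 250 bases before the transcription start in RefSeq GRCh38.p14, 5′ to 3′ on the strand of the gene, with every CpG in capitals. HOXD1 (chr2:176188418-176188667, plus strand) was the only one of 20 HOX promoters in the table with a KDM2B peak over it. HOXA13 (chr7:27200092-27200341, minus strand) had the most CpGs, 40. HOXD4 (chr2:176151300-176151549, plus strand) had the fewest, 4, and carried H3K4me3 and H3K27ac. HOXD10 (chr2:176116528-176116777, plus strand) carried both Polycomb marks and no other.
HOXD1: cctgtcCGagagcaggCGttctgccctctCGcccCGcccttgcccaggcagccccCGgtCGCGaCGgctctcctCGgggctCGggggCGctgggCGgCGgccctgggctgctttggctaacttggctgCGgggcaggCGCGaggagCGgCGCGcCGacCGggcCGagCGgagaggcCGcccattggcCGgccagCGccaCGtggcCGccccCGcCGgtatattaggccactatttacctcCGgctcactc
HOXA13: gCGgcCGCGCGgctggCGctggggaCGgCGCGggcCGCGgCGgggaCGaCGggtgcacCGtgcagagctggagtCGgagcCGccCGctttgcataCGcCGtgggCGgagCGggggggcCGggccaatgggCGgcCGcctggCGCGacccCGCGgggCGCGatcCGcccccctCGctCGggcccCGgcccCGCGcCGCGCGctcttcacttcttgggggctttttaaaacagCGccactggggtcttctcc
HOXD4: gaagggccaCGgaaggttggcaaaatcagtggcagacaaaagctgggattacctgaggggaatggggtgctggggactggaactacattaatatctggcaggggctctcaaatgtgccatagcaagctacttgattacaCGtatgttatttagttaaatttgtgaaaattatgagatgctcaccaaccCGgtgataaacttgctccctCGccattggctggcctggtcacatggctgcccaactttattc
HOXD10: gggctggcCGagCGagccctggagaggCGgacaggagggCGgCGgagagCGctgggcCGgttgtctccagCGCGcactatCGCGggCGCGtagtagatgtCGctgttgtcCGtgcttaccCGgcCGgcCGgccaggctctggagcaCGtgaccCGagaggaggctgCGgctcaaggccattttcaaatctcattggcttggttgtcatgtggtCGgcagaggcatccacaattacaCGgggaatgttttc

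Most HOX genes carried a Polycomb mark at an end, and few carried KDM2B or MYC. A gene was counted when a peak reached, by 1 bp or more, into the window of 1 kb on each side of either end of its record. H2AK119ub was at 35 of the 38 HOX genes (92.1%), against 45.1% of all protein-coding genes. H3K27me3 was at 24 of 38 (63.2%), against 26.9%. H3K4me3 was at 20 of 38 (52.6%), against 69.4%, and H3K27ac at 13 of 38 (34.2%), against 63.7%. MYC was at 9 of 38 (23.7%), against 64.2%, and KDM2B at 6 of 38 (15.8%), against 46.7%. HOX genes were thus above the share of all genes for both Polycomb marks and below it for the other 4 targets. Neighbouring HOX records overlap and share peaks, so these genes are not 38 independent counts: the 35 genes with H2AK119ub rested on 86 peaks and the 6 with KDM2B on 7. With windows of 2500 bp the counts rose to 11 for KDM2B and 15 for MYC, against 49.5% and 67.7% of all genes. With only the 15000 peaks of highest fold in each list they fell to 9 for H2AK119ub and 8 for H3K27me3, against 10.8% and 6.44% of all genes, and to 13 for H3K4me3 and 5 for H3K27ac, against 63.0% and 46.7%.

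**Figure D1:**
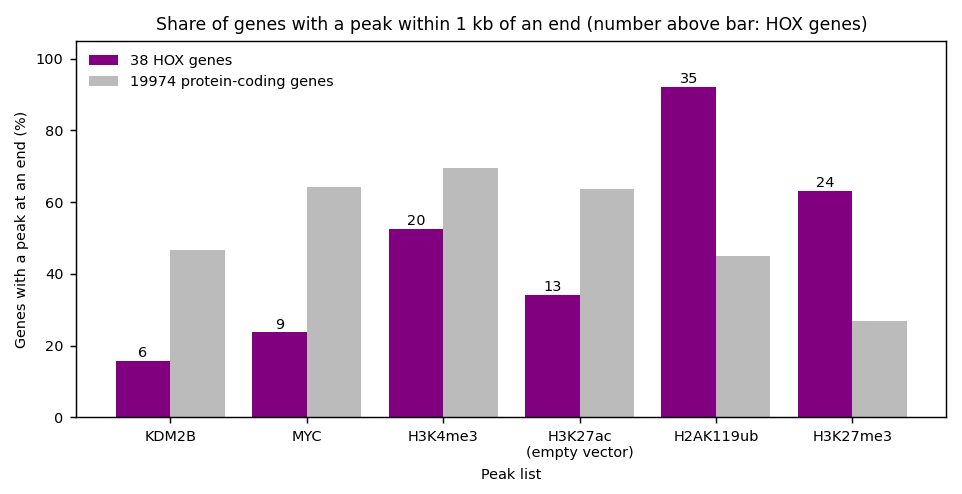
Percent of genes with a peak within 1 kb of an end, for the 38 HOX genes (purple, number of genes above each bar) and all 19974 protein-coding genes (grey), by peak list; each list is 1 deposited list, so there are no error bars. The HOX bars stand above the grey bars for H2AK119ub (35 genes) and H3K27me3 (24 genes) and below them for the other 4 lists.

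Taking the whole gene record with 1 kb either side gave the same order. H2AK119ub then lay in 37 of 38 HOX genes (58.5% of all genes), the exception being HOXD1, and H3K27me3 in 26 (32.8%). H3K4me3 lay in 22 (77.3%), H3K27ac in 15 (71.8%), MYC in 12 (72.6%) and KDM2B in 8 (52.8%). At the end of the record that holds the gene start, the counts over the 38 HOX genes were 32 for H2AK119ub and 18 for H3K27me3, where 31.7% and 20.0% of the 15812 genes with a known strand had a peak. H3K4me3 was there at 15 HOX genes (68.6% of those 15812 genes) and H3K27ac at 10 (63.2%). MYC was there at 7 (63.9%) and KDM2B at 5 (47.0%). The gene start is here the outermost one in the record, so a start inside a long record such as HOXA3, HOXB3 or HOXC4 is not seen by this count.

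The combinations at gene ends fell into a few patterns. Both Polycomb marks were at 23 of 38 HOX genes, against 21.6% of all genes, and 12 HOX genes had H2AK119ub without H3K27me3, against 23.5%. A Polycomb mark with none of the other 4 targets was found at 16 HOX genes, against 18.4%. H3K4me3 stood beside H3K27me3 at 12, against 9.56%. H3K4me3 without H3K27ac was found at 8, namely HOXA9, HOXA10, HOXA11, HOXB13, HOXC8, HOXC11, HOXD9 and HOXD12, against 7.18% of all genes. KDM2B, MYC, H3K4me3 and H3K27ac were together at 6 HOX genes, the same 6 that had KDM2B at all, against 44.8% of all genes. Only HOXB3 had no peak of any list at an end, against 9.82%, and its record held peaks of 5 lists away from the ends.

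**Figure D2:**
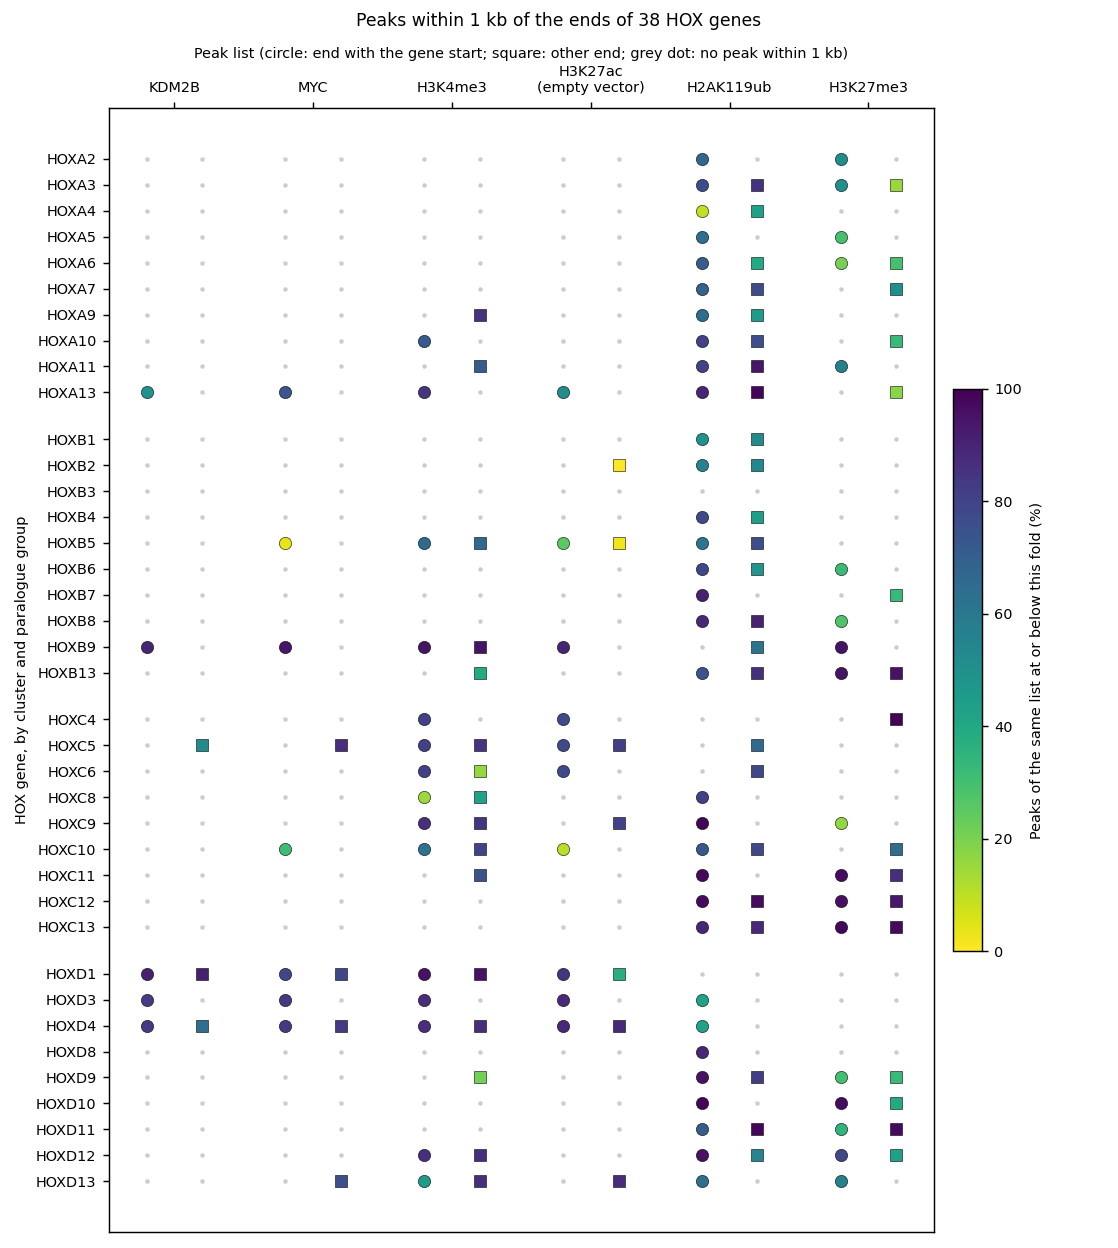
Each row is a HOX gene, ordered by cluster and paralogue number, and each pair of columns a peak list; circles are peaks within 1 kb of the end with the gene start, squares those at the other end, grey dots no peak, and colour the percent of peaks of the same list at or below the fold. H2AK119ub fills 35 rows, while KDM2B symbols appear in 6.

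Where HOX genes carried H3K4me3, H3K27ac, MYC or H3K27me3 at an end, their median fold was below that of all genes with a peak of the list. The median highest fold at an end was 22.5 for H3K4me3 over the 20 HOX genes and 43.0 over all 13863 genes with it. It was 10.5 against 24.7 for H3K27ac, 8.27 against 11.4 for MYC and 2.75 against 3.48 for H3K27me3. For H2AK119ub the medians were 2.89 and 2.88, and for KDM2B 4.53 and 3.91. The share of the record and 1 kb around it that lay in peaks gave a different picture for the Polycomb marks. The median HOX gene had 30.8% of this stretch in H2AK119ub peaks, against 1.15% over all genes, and the medians for H3K27me3 were 15.0% and 0%. Among HOX genes the stretch ran from 3677 bp at HOXD4 to 47574 bp at HOXA3. The genes compared were not matched for its length, on which such a share depends. At least 50% of the stretch was covered by H2AK119ub in 7 of 38 HOX genes, against 11.7% of all genes, and by H3K27me3 in 9, against 13.1%.

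Every listed gene of the HOXA cluster carried H2AK119ub. Its listed genes span chr7:27100354-27200091, 99.7 kb, of which 29.6% was in H2AK119ub peaks and 14.7% in H3K27me3 peaks, where the whole chromosome had 4.44% and 8.50%. All 10 genes had H2AK119ub at an end, and the higher fold of each gene's ends ran from 2.37 at HOXA4 to 4.14 at HOXA13. H3K27me3 was at 8, all but HOXA4 and HOXA9. The higher fold of each gene's ends ran from 2.19 at HOXA13 to 2.80 at HOXA11, below the median of 3.48 over all genes with that mark. The longest stretch without H3K27me3, 16.6 kb, held HOXA4. From HOXA2 through HOXA7, 6 genes carried Polycomb marks at their ends and nothing else, and HOXA6 and HOXA7 were 57.6% and 59.0% covered by H2AK119ub.

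HOXA9, HOXA10, HOXA11 and HOXA13 were the HOXA genes with H3K4me3. These genes pattern limbs and the urogenital tract, and HOXA9 and HOXA10 are also known from blood cells. At HOXA9 the H3K4me3 fold was 31.1, from a 3759 bp peak between HOXA7 and HOXA9 at the far end of HOXA9. That peak also held KDM2B (2.70-fold), MYC (6.72-fold) and H3K27ac (12.6-fold), but with no gene end of the list within 1 kb of them. HOXA10 and HOXA11 shared 1 H3K4me3 peak of 7.22-fold. HOXA13 was the only HOXA gene with KDM2B (3.23-fold), MYC (6.72-fold), H3K4me3 (28.1-fold) and H3K27ac (3.35-fold) at its start. The KDM2B summit lay at -442 bp from that start, upstream of it and close to HOTTIP, a long non-coding RNA transcribed away from HOXA13. H2AK119ub stood at both ends of HOXA13, with 3.22-fold at the start and 4.14-fold at the other end, and H3K27me3 at the other end (2.19-fold).

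The HOXB cluster was divided into a part without H3K27me3 and a part under it. The span chr17:48528526-48728750 is 200.2 kb long and includes 98.4 kb between HOXB9 and HOXB13. H3K27me3 peaks covered 38.9% of it and H2AK119ub peaks 24.9%, against 20.6% and 16.0% of the chromosome. Without HOXB13 the span is 97.8 kb and the shares were 5.93% and 23.5%, so the H3K27me3 value rests on the stretch up to HOXB13. From HOXB1 into HOXB6, 68.6 kb held no H3K27me3 peak at all. Peaks of H3K27me3 merged across gaps of at most 3 kb gave a domain of 125 kb that began upstream of HOXB9 and ran over HOXB13, with 74.2% of it in peaks.

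HOXB9 and HOXB13, on either side of the 98.4 kb gap, differed in their marks. HOXB13, a gene of prostate and hindgut, was 82.9% covered by H3K27me3 (4.56-fold) and 82.8% by H2AK119ub (3.10-fold), with H3K4me3 of 2.92-fold at its far end. HOXB9 had the highest MYC fold of any HOX gene end, 18.3, with H3K4me3 at 48.7-fold, H3K27ac at 21.7-fold and KDM2B at 5.14-fold. Its H3K4me3 peak was 8395 bp wide and covered most of the record, 97.2% with the other H3K4me3 peaks. The H3K27me3 peak upstream of HOXB9 (4.54-fold) began at position 48627102 on chromosome 17, just inside the window of its start. The summit of this peak lay at -5090 bp from the HOXB9 start. HOXB9 thus counts as carrying H3K27me3 although that mark covered 3.57% of it. H2AK119ub stood at the far end of HOXB9 (2.60-fold) and covered 36.1% of it.

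The other HOXB genes had few active marks at their ends. HOXB1, HOXB4, HOXB6, HOXB7 and HOXB8 carried Polycomb marks alone, and H2AK119ub covered 49.2% of HOXB1. HOXB5 had H3K4me3 (5.68-fold), H3K27ac (2.37-fold) and MYC (2.00-fold). Its H3K27ac fold was at or above 25.1% of the H3K27ac list and its MYC fold 3.76% of the MYC list, while H3K4me3 stood at 66.4% of its list. HOXB2 had H3K27ac of 1.66-fold at its far end. The H3K27ac peak of highest fold in the 4 clusters, 28.5, was 6100 bp wide with its summit at -6451 bp from the HOXB1 start, upstream of it, and it held 2 MYC peaks and no KDM2B. Inside HOXB3 an H3K27ac peak of 21.9-fold and an H3K4me3 peak of 30.8-fold held KDM2B (3.18-fold) and MYC (6.23-fold), with the KDM2B summit 4887 bp after the outermost start. These lay near HOXBLINC, a long non-coding RNA in the record.

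The HOXC cluster had the most Polycomb coverage and also the longest H3K4me3 stretch. The span chr12:53938831-54056030, 117 kb, was 53.2% in H3K27me3 peaks and 35.7% in H2AK119ub peaks, both above the shares of the whole chromosome (5.24% for H2AK119ub). A merged H3K27me3 domain of 208 kb came in from upstream and ended between HOXC11 and HOXC10. A second of 78.7 kb began in the far part of HOXC4 and left the cluster downstream. A merged H3K4me3 domain of 31.6 kb ran from HOXC11 over HOXC10 and HOXC9, and its first part overlapped the 208 kb H3K27me3 domain. Shorter merged H3K27me3 domains lay at HOXC10 (6.24 kb) and after the start shared by HOXC4, HOXC5 and HOXC6 (8.48 kb).

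HOXC12 and HOXC13, at the posterior end, carried both Polycomb marks and no other. H3K27me3 covered 90.7% of HOXC12 (4.69-fold) and 85.3% of HOXC13 (5.47-fold), and H2AK119ub covered 69.4% and 46.6%. The summit of the 5.47-fold peak lay at -12735 bp from the HOXC13 start, upstream of the gene. HOXC13 is known for its role in hair and nails. HOXC11 was 74.4% covered by H3K27me3 (4.87-fold) with H3K4me3 of 8.95-fold at its far end. The summit of that H3K27me3 peak lay at -7203 bp from the HOXC11 start. The H3K27me3 peak of highest fold that reached a HOX gene end, 5.96, was at the end of HOXC4 away from its start. Its summit lay 43668 bp after that start, beyond the HOXC4 record of 39143 bp. H3K4me3 (16.9-fold) and H3K27ac (8.85-fold) stood at the start that HOXC4 shares with HOXC5 and HOXC6.

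HOXC9 and HOXC10, within the H3K4me3 domain, were 85.8% and 83.0% covered by H3K4me3. At the HOXC9 start the H3K4me3 fold was 32.6, with 4.06 for H2AK119ub and 2.19 for H3K27me3. The summit of that H3K4me3 peak lay at -4344 bp from the start. H3K27ac (10.5-fold) stood only at the far end of HOXC9, where neither Polycomb mark did. HOXC10 had H3K4me3 of 15.1-fold at its far end and 4.76-fold at its start, where MYC (2.74-fold) and H3K27ac (2.04-fold) were weak. The MYC peak of highest fold in HOXC, 13.4, was at neither, but at HOXC-AS2, with its summit at -4397 bp from the HOXC9 start, where H3K27ac reached 27.8-fold and KDM2B 2.49-fold. HOXC5 was the only HOXC gene with KDM2B at an end (3.34-fold, with MYC at 11.7-fold, H3K4me3 at 29.1-fold and H3K27ac at 11.9-fold), at the end away from its start. A second KDM2B peak nearby, 4.04-fold, lay inside the HOXC4 and HOXC5 records, away from their ends. HOXC6 had H3K4me3, H3K27ac and H2AK119ub (2.89-fold), and HOXC8 had H2AK119ub (2.95-fold) with H3K4me3 of 3.05-fold.

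The HOXD cluster was divided between its posterior genes, with H3K27me3, and its other genes, without it. H3K27me3 covered 20.9% and H2AK119ub 21.5% of the span chr2:176087487-176190907, 103 kb, against 10.3% and 4.71% of the chromosome. All 5 genes from HOXD9 to HOXD13 had H3K27me3 at an end, and HOXD1, HOXD3, HOXD4 and HOXD8 had none. The final 43.6 kb, with HOXD4, HOXD3 and HOXD1, held no H3K27me3 peak, and a merged domain of 27.6 kb ran from HOXD12 to HOXD9. HOXD10 and HOXD11 shared the highest fold of both marks, 4.97 for H3K27me3 and 4.13 for H2AK119ub, and H2AK119ub covered 89.9% of HOXD9. These 5 genes are known for patterning of limbs and digits.

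HOXD1, HOXD3 and HOXD4 carried KDM2B, MYC, H3K4me3 and H3K27ac. At HOXD1 the folds were 5.24 for KDM2B, 8.27 for MYC, 49.2 for H3K4me3 and 14.1 for H3K27ac, and the gene had no peak of either Polycomb mark. The KDM2B peak was 2504 bp wide, the widest in the clusters, and covered 57.8% of HOXD1 and its surroundings. HOXD3 and HOXD4 shared theirs, with KDM2B at 4.53-fold, MYC at 10.2-fold, H3K4me3 at 34.5-fold and H3K27ac at 20.1-fold, because the HOXD3 record begins inside HOXD4. H2AK119ub stood there at 2.37-fold. HOXD13 had MYC (7.32-fold) and H3K27ac (17.2-fold) at its far end and both Polycomb marks at its start, and its H3K4me3 peak (31.9-fold) reached HOXD12. HOXD8 had H2AK119ub alone (3.21-fold), and HOXD9 had H3K4me3 at its far end.

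**Figure D3:**
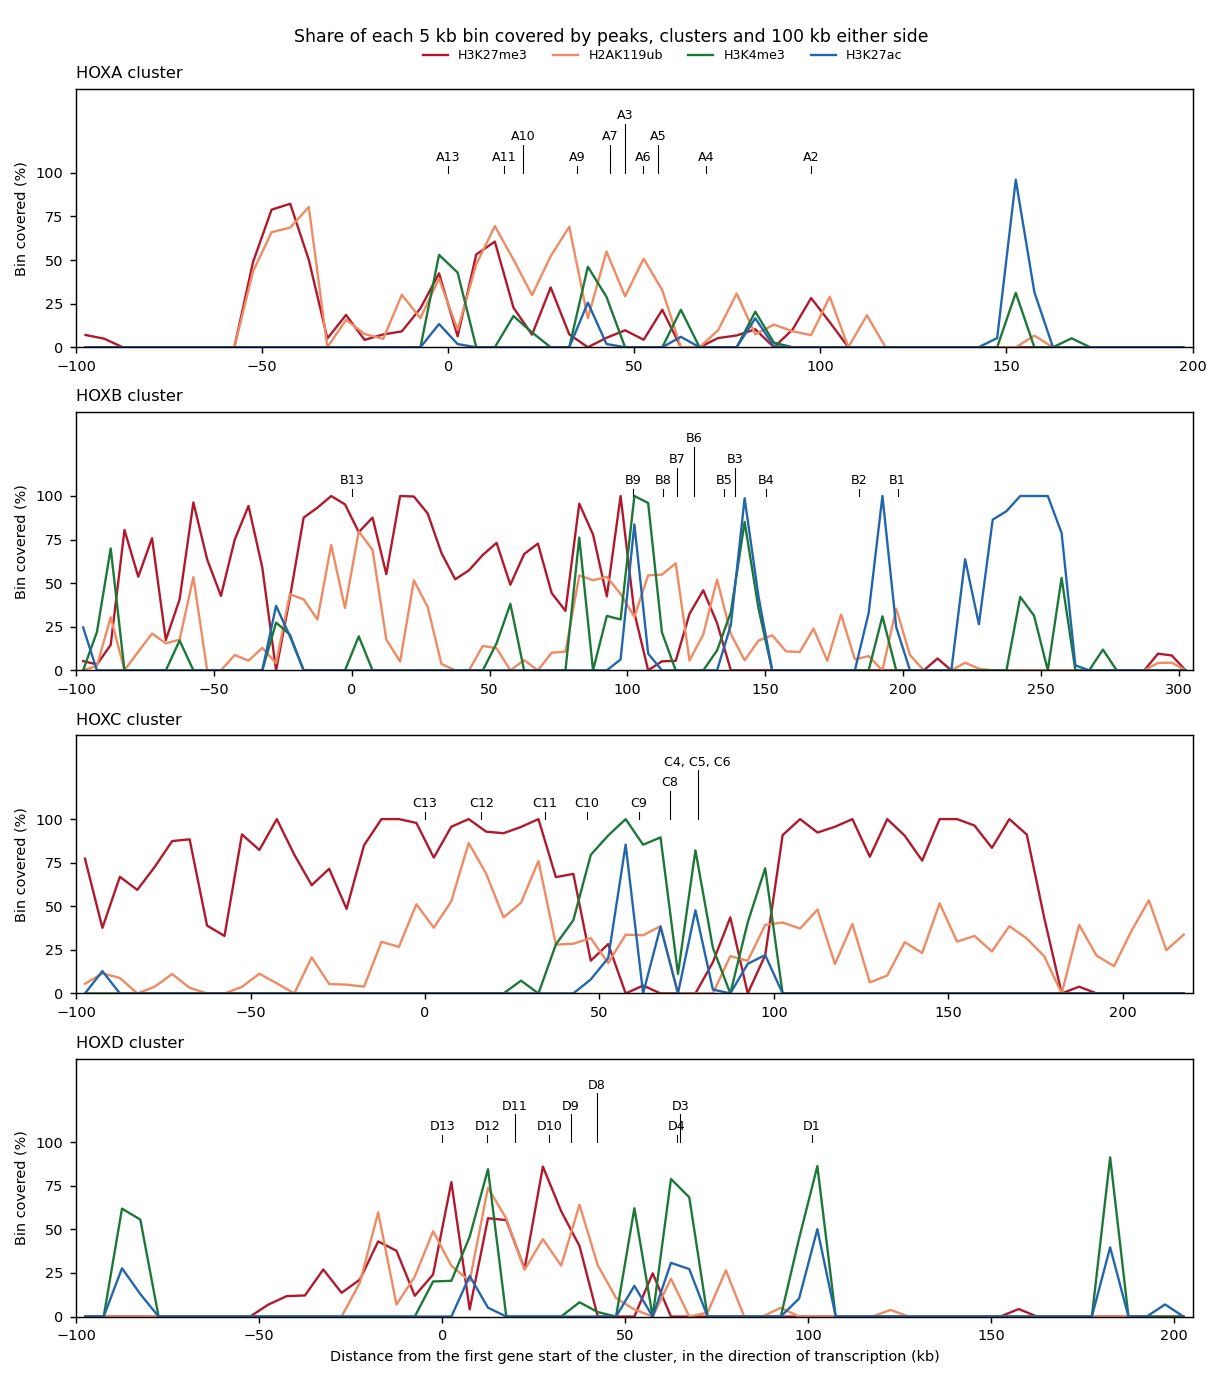
Percent of each 5 kb bin in peaks of 4 lists along each cluster and 100 kb either side, against distance from the first gene start in the direction of transcription (kb); ticks mark member starts, labelled by cluster letter and number. H3K27me3 is at 0 over the last 43.6 kb of the HOXD members and over 68.6 kb from HOXB1 into HOXB6, and it covers most bins around HOXC12 and HOXC13.

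Pooled over the 4 clusters, H3K27me3 was at a larger share of posterior than of anterior genes. Among the 16 posterior genes, numbers 9 to 13, 15 had H3K27me3 at an end, all but HOXA9, and all 16 had H2AK119ub. Of the 15 central genes, numbers 4 to 8, 7 had H3K27me3 and 14 had H2AK119ub. Of the 7 anterior genes, numbers 1 to 3, HOXA2 and HOXA3 had H3K27me3 and 5 had H2AK119ub. The median share of the record in H3K27me3 peaks was 48.4% for posterior genes, 11.3% for central genes and 0% for anterior genes. HOXA did not show this direction, since both of its anterior genes had H3K27me3. HOXA2 had the largest share of its record in H3K27me3 peaks among HOXA genes, 29.7%. HOXC, the cluster most covered by H3K27me3, has no anterior gene, so position and cluster are mixed in the pooled values. H3K4me3 at either end followed the same direction, at 12 of 16 posterior, 6 of 15 central and 2 of 7 anterior genes. At the end with the gene start it was at 7, 6 and 2 of them, so the shares were closer there. KDM2B was at 2 genes of each group.

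**Figure D4:**
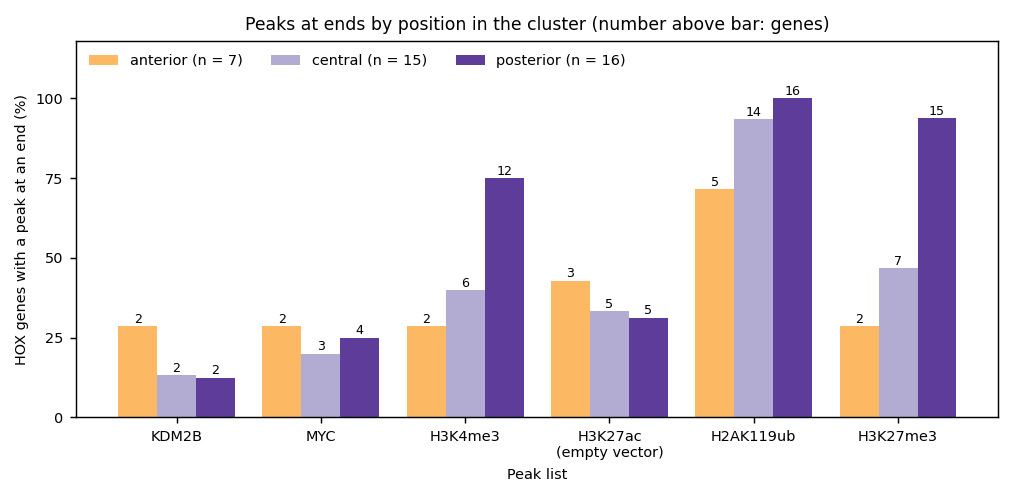
Percent of the 7 anterior, 15 central and 16 posterior HOX genes with a peak within 1 kb of an end, by peak list, with the number of genes above each bar; there are no error bars, since each list is 1 deposited list. The H3K27me3 bars rise from 2 anterior genes to 7 central and 15 posterior genes.

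H3K4me3 and H3K27me3 were found together mainly at posterior genes. Of the 12 HOX genes with both, 11 were posterior and the other was HOXC4. Both marks stood at the same end in 8 of these 12: HOXB9, HOXB13, HOXC9, HOXC10, HOXC11, HOXD9, HOXD12 and HOXD13. In 9 of 12, an H3K4me3 peak at an end overlapped an H3K27me3 peak by at least 1 bp, the 8 above and HOXA13. No share over all genes with both marks is given for either count, so neither is a trait particular to HOX genes. Over the clusters, 25 of 58 H3K4me3 peaks overlapped an H3K27me3 peak, against 10.4% of all H3K4me3 peaks. The clusters also hold more H3K27me3 to overlap. Its peaks covered 14.7% of HOXA, 38.9% of HOXB, 53.2% of HOXC and 20.9% of HOXD, against 11.8% of all chromosomes used. H3K4me3 peaks held 14.6% of the H3K27me3 bp in HOXD, 10.8% in HOXB, 8.24% in HOXC and 2.13% in HOXA, against 1.48% over all chromosomes used. They covered more of each whole span: 23.4% of HOXD, 15.6% of HOXB, 32.2% of HOXC and 9.47% of HOXA. Within every cluster, H3K27me3 bp thus held less H3K4me3 than the span as a whole. H3K27ac peaks held 2.18% of the H3K27me3 bp in HOXB, 0.658% in HOXC and none in HOXA or HOXD, against 0.0875% over all chromosomes used. Peaks at the same place in bulk cells can come from 1 chromosome copy or from different cells or copies, which cannot be told apart here. H3K27ac came from empty-vector cells and H3K27me3 from parental cells, so their overlap also sets different stocks side by side.

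H3K27me3 and H2AK119ub covered the same bp to a different extent in each cluster. H2AK119ub peaks held 68.4% of the H3K27me3 bp in HOXA, 59.7% in HOXD, 52.1% in HOXC and 35.3% in HOXB, against 29.2% over all chromosomes used. HOXC12, HOXB13 and HOXD9 stood high for both marks by record, and HOXA6 and HOXA7 were high for H2AK119ub with H3K27me3 at 11.3% and 15.2%. HOXD1, at 0% for both, was the only gene with neither. No H3K27me3 peak lay in the record of 12 HOX genes: HOXA4, HOXA9, HOXB1 to HOXB5, HOXC8, HOXD1, HOXD3, HOXD4 and HOXD8.

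**Figure D5:**
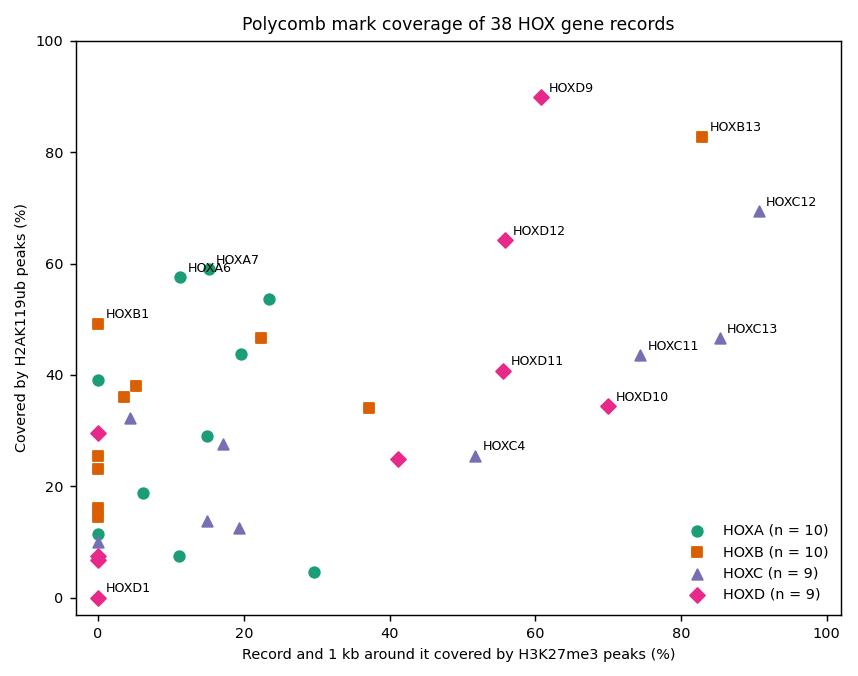
Percent of each HOX gene record and 1 kb around it covered by H3K27me3 peaks (horizontal) and by H2AK119ub peaks (vertical), 1 point per gene, shape and colour by cluster. HOXC12 (90.7% and 69.4%) and HOXB13 (82.9% and 82.8%) lie at the upper right, HOXD1 at 0% on both axes, and HOXA6 and HOXA7 are at 57.6% and 59.0% for H2AK119ub with 11.3% and 15.2% for H3K27me3.

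KDM2B and MYC peaks in the clusters lay on H3K4me3 peaks and mostly outside H3K27me3. Most peaks of these 2 lists did so over all chromosomes used as well. Of 15 KDM2B peaks within 1 kb of the clusters, 15 overlapped H3K4me3, 14 MYC and 14 H3K27ac, while 4 overlapped H2AK119ub and 1 H3K27me3. Of all 19982 KDM2B peaks, 81.7% overlapped MYC, 78.3% H3K4me3 and 74.1% H3K27ac, while 24.6% overlapped H2AK119ub and 4.91% H3K27me3. The 1 KDM2B peak with H3K27me3 (3.17-fold) was in the gap between HOXB9 and HOXB13, 50229 bp downstream of the start of HOXB13, with no MYC peak over it. All 18 MYC peaks overlapped H3K4me3, 16 overlapped H3K27ac and 11 KDM2B, against 79.0%, 77.6% and 26.4% of all MYC peaks. Of these 18, 5 overlapped H2AK119ub and 2 H3K27me3, against 31.8% and 7.14% of all MYC peaks. The 5 highest KDM2B folds were 5.24 at HOXD1, 5.14 at HOXB9, 4.53 at HOXD4 and HOXD3, 4.04 inside HOXC4 and HOXC5, and 3.76 between HOXD13 and HOXD12. The last of these had its summit at -2205 bp from the HOXD12 start and was within 1 kb of no gene end.

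The clusters also hold microRNA genes, and these differed in marks. Among the mature sequences available here, those of 3 genes share a seed. For MIR10B only miR-10b-3p was available, so no miR-10b-5p seed could be compared with that of miR-10a-5p. The mature sequences below are from RefSeq, 5′ to 3′, with the seed (bases 2 to 8) in capitals, and are shown because the seed fixes which transcripts a microRNA pairs with. miR-196b-5p comes from HOXA, and miR-196a-5p from 1 gene in HOXB and another in HOXC.
miR-196b-5p: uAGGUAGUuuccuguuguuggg
miR-196a-5p: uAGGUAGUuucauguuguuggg
miR-10a-5p: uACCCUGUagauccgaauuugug
miR-615-3p: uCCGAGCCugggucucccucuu
miR-10b-3p: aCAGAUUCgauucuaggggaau

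The first and the second have the seed AGGUAGU in common. Within 1 kb of its hairpin, MIR196B had H2AK119ub (2.84-fold) and H3K27me3 (2.43-fold) and nothing else, as did MIR196A1 between HOXB9 and HOXB13 (3.56-fold and 4.54-fold). MIR196A2, between HOXC10 and HOXC9, had these marks at 2.89-fold and 2.98-fold, with H3K4me3 at 15.1-fold and H3K27ac at 2.12-fold. MIR10A, inside HOXB3, had H2AK119ub alone (2.87-fold). MIR10B, upstream of HOXD4 and known from work on breast cancer metastasis, had H3K4me3 (34.5-fold) and H3K27ac (20.1-fold) and no Polycomb mark. MIR615, inside HOXC5, had KDM2B (4.04-fold), MYC (11.7-fold), H3K4me3 (29.1-fold) and H3K27ac (11.9-fold) beside H2AK119ub (2.67-fold).

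CpG content and E-boxes were compared over the 20 HOX genes with a promoter in RefSeq, beside 15812 protein-coding promoters of the same 250 bases. The HOX promoters had a median of 20.5 CpGs, against 17.0 over all. Over all genes the median was 26.0 where a KDM2B peak lay over the promoter and 14.0 where none did. HOXD1, with 31 CpGs, was the 1 HOX promoter under KDM2B, while HOXA13 with 40, HOXA7 and HOXD8 with 28 each and HOXA6 with 27 were under none. At HOXD4, with 4 CpGs in the sequence above, the KDM2B summit lay 295 bp after the start, outside the 250 bases. The KDM2B peak of HOXA13 also lay just outside them, with its summit at -442 bp from the start. HOXD10, with 23 CpGs, had H2AK119ub (4.13-fold) and H3K27me3 (4.97-fold) over it.

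The letters CACGTG, which read the same on both strands, occurred in 7 of the 20 HOX promoters and in 7.79% of all 15812. They were in HOXA4, HOXA9, HOXD1, HOXD3, HOXD10, HOXD11 and HOXD13. A MYC peak lay over HOXD1 (8.27-fold) among these, and over HOXA13 (6.72-fold), whose 250 bases do not hold the letters. A match is a description of the sequence and not a site of binding. For HOXD13 and HOXD3 the start in the promoter table lies 5234 and 4778 bp inside the record, so those windows differ from the record ends used above. HOXC4 and HOXC5 share 1 promoter entry.

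Marks were also counted at related genes outside the clusters and at non-coding genes within them. Of 8 ParaHox and even-skipped genes, which are close relatives of HOX genes, 8 had H2AK119ub, 7 had H3K27me3, 3 had H3K4me3 and 0 had H3K27ac. Of all protein-coding genes, 45.1% had H2AK119ub, 26.9% H3K27me3, 69.4% H3K4me3, 63.7% H3K27ac, 64.2% MYC and 46.7% KDM2B at an end. GSX2 was the 1 without H3K27me3 and the 1 with KDM2B (2.98-fold) and MYC (2.22-fold). Among 19 non-coding genes of the clusters, 17 had H2AK119ub, 10 H3K27me3, 8 H3K27ac, 7 H3K4me3, 5 MYC and 4 KDM2B. No share over all non-coding genes is given, and peaks shared with HOX genes are counted again here. The 4 with KDM2B were HAGLR, which shares the HOXD1 peak, HOTTIP beside HOXA13, HOXBLINC inside HOXB3 and HOXC-AS2. HOTAIR, a non-coding RNA of HOXC that has been studied for its ties to PRC2 in breast cancer, had H2AK119ub (3.84-fold) and H3K27me3 (4.87-fold) at its ends and no other target there. The 3 retinoic acid receptor genes, RARA, RARB and RARG, which encode receptors known to regulate HOX genes, had H3K4me3, MYC and H2AK119ub and no H3K27me3.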

How the data were processed

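Per the labels' protocols, chromatin was digested enzymatically. Per the submitters' processing notes, reads went through Trim Galore, Bowtie2 2.4.5, SAMtools 1.6 and MACS2 2.2.7.1, on build hg38. Trim Galore's version, the control of each list, and whether libraries were pooled are not given in the sources used here. The deposited lists, 1 per target, give a fold (the authors' ratio of signal over background), a −log10 q-value from the authors' peak caller, and a summit offset. Digestion and narrow-peak calling can split broad domains into many peaks. From these, peaks on chromosomes 1 to 22 and X were intersected (at least 1 bp) with windows of 1 kb around both ends of RefSeq GRCh38.p14 records, and with whole records and cluster spans, in Python 3.11.15 with pandas 2.3.3 and numpy 2.4.6; the interval code was tested on simulated data. Gene starts used the strand of the promoter table, or for 18 HOX genes not in it, that of the cluster. The HOX genes and all lists were chosen with earlier results of these data known. Named genes were those with KDM2B, the 3 highest folds per mark and cluster, members of counts of 5 or fewer, and the most and least covered genes; other names were chosen after their values were seen. Groups were taken from titles. The labels do not say whether the libraries within a group are separate cultures. No test was run. Alternatives were windows of 500 and 2500 bp, q under 1e-5, the 15000 peaks of highest fold, merging across 3 kb and HOXB without HOXB13. The planned list of HOX cofactors is not reported here.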

Additional observations from a re-analysis of the deposited data

How the results depend on the processing

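Each count or share rests on 1 list without replicates. No paired analysis was possible because the lists hold no value per library. Depth is unknown, so absence of a peak cannot be told apart from low coverage. Under the alternatives, 30 counts of HOX genes stayed within 1.5 times the reported count and 6 did not. Windows of 2500 bp gave 11 HOX genes with KDM2B and 15 with MYC. With the 15000 peaks of highest fold, 13 had H3K4me3, 5 H3K27ac, 9 H2AK119ub and 8 H3K27me3, against 63.0%, 46.7%, 10.8% and 6.44% of all genes. Coverage of the clusters by peaks moved with every threshold. For H2AK119ub, in the order HOXA, HOXB, HOXC and HOXD, it was 18.2%, 13.5%, 18.4% and 15.2% at q under 1e-5, and 2.24%, 2.64%, 10.4% and 3.01% with 15000 peaks. Merged across 3 kb it was 56.3%, 56.3%, 75.4% and 43.3%. For H3K27me3 the same order gave 6.02%, 34.8%, 48.5% and 14.9% at q under 1e-5, and 0%, 12.6%, 24.9% and 3.07% with 15000 peaks. Merged it was 31.8%, 55.1%, 66.6% and 33.8%. Without HOXB13, HOXB had 23.5% for H2AK119ub and 5.93% for H3K27me3. By their construction, the alternatives for coverage keep fewer peaks, join them or shorten the span, and windows of 2500 bp reach more peaks. The cause of the moves was not tested.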
